A study of Mus musculus with 8 samples.

Results

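The integrated stress response genes were the 10 genes *Eif2ak4*, *Atf4*, *Atf5*, *Ddit3*, *Atf3*, *Trib3*, *Asns*, *Chac1*, *Sesn2* and *Ddit4*, taken by symbol from a table of 18635 mouse genes. All 10 were listed, and all 10 had a mean normalized count of at least 10, the level required for testing, which 13629 genes reached. RNA-seq had been done on tumor-educated macrophages (TEMs), namely bone marrow-derived macrophages (BMDMs) cultured over 24 h with tumor-conditioned medium (TCM) from AE17, a murine mesothelioma line. The question of the comparison was how loss of *Phgdh*, which encodes the first enzyme of serine synthesis from glucose, alters gene expression in these cells. The control samples were *Phgdh* fl/fl TEMs, whose *Phgdh* alleles are floxed but intact, and they are called floxed TEMs here. The other samples were *Phgdh* fl/fl *Cx3cr1*-Cre TEMs, with the same floxed alleles and a Cre recombinase expressed from 1 *Cx3cr1* allele, and they are called Cre TEMs. Both genotypes were on the C57BL/6 background, both were exposed to AE17-TCM, and each had 4 samples. The labels number the samples as replicates, and the paper calls them biologically independent. Since every Cre sample carries Cre at the *Cx3cr1* locus as well as the *Phgdh* deletion, the effects of both cannot be told apart. No BMDMs without AE17-TCM were analysed here, so the response of these genes to the medium itself was not measured.

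In the integrated stress response, kinases that sense amino acid shortage, misfolded protein, double-stranded RNA or heme shortage phosphorylate the translation initiation factor eIF2. General translation then falls, while the mRNA of the transcription factor ATF4 is translated more, because ribosomes bypass inhibitory upstream open reading frames. ATF4 can therefore change in amount without a change in its mRNA, and its activity is usually read from its target genes. These encode further transcription factors, enzymes and transporters for amino acids, and feedback regulators. In macrophages the same genes also respond to inflammatory and oxidative signals, and several are shared with other pathways.

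ATF4 binds with C/EBP partners to a composite element whose core is TGATGNAA. This core was found on either strand in the promoter windows of 4 of the 10 genes. Those windows are shown here because the 4 genes did not all change alike. A window covers 250 bases before to 50 bases after the RefSeq transcript start in build GRCm38.p6, 12 windows were matched to the 10 genes by symbol, and each sequence is written 5′ to 3′ on the strand of its gene with the core in capitals.

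*Trib3*, chr2:152344011-152344310, minus strand, core in the region from 14 to 21 bases after the start: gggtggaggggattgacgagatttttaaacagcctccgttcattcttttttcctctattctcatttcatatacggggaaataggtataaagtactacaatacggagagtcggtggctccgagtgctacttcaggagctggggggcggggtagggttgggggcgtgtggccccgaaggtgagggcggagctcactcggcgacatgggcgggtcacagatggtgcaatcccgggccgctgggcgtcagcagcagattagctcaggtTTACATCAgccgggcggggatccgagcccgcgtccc
*Asns*, chr6:7693160-7693459, minus strand, core from 23 to 16 bases before the start: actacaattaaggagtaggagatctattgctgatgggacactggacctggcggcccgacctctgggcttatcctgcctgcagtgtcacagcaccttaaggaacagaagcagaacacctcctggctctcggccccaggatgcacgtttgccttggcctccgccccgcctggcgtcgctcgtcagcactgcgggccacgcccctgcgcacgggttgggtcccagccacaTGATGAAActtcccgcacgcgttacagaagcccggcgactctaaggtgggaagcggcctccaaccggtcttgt
*Atf3*, chr1:191183284-191183583, minus strand, core from 110 to 103 bases before the start: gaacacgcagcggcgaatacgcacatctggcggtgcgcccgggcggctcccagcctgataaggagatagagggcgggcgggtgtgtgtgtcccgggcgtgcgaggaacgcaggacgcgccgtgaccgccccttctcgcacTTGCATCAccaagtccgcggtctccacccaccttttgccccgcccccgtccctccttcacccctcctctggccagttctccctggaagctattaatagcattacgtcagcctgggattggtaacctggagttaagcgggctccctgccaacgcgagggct
*Chac1*, chr2:119350992-119351291, plus strand, core from 193 to 186 bases before the start: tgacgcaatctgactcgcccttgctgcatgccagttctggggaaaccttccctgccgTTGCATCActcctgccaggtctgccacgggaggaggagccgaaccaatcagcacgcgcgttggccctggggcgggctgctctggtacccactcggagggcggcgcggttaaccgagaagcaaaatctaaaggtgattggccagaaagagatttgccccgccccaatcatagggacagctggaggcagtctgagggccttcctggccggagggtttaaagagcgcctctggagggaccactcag

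Of the windows of all 32851 RefSeq entries, 1304 (3.97%) held the core, and of 9714 tested genes with a window 275 (2.83%) did. The cAMP response element TGACGTCA, to which ATF family factors also bind, was in none of the members' windows. It was in 588 (1.79%) of all windows and in 350 (3.6%) of the tested genes with a window. The endoplasmic reticulum stress element (ERSE), which ATF6 uses, was in none of the members' windows either. It was in 39 (0.119%) of all windows and in 18 (0.185%) of the tested genes with a window. A match describes the letters of a window only and is no measure of binding. Among the 4 genes with the core, *Trib3* rose, *Asns* and *Atf3* fell, and *Chac1* did not pass the test, as described gene by gene below.

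The reads counted on genes were recovered from the deposited values and totalled between 38219563 and 47027420 per sample, and replicates differed by more than counting noise (chi-square per gene). Floxed replicate 1 differed most from its group, with values of 5.40 to 6.2 against the other floxed samples, where all other pairs of replicates lay between 1.79 and 3.83. *Phgdh* had 119, 129, 117 and 105 normalized counts in the floxed TEMs and 32.6, 35.3, 14.2 and 26.3 in the Cre TEMs, so that every sample matched its label. The 8 macrophage markers were all listed, with a summed level between 1.03e+06 and 1.12e+06 normalized counts in the floxed and between 1.01e+06 and 1.09e+06 in the Cre TEMs, most of it from *Lyz2*. Of these markers 4 fell in the Cre TEMs, namely *Fcgr1* by 0.40, *Cd14* by 0.32, *Itgam* by 0.19 and *Adgre1* by 0.08 on the log2 scale (limma adjusted p of 7.4e-12, 1.9e-10, 7.0e-06 and 0.0056), and the other 4 did not pass the test. Of the 8 mesothelial or epithelial markers 1 was listed, with sums between 1.03 and 3.72 and between 1.04 and 5.08. Of the 7 fibroblast markers 5 were listed, of the 6 T or NK cell markers 1, of the 5 B cell markers 2, of the 7 neutrophil or progenitor markers 1, of the 6 dendritic cell markers 4 and of the 7 erythroid or megakaryocyte markers 2. *Pf4* fell by 0.42 and *Cd79b* by 0.63 on the log2 scale and *S100a8* rose by 0.23, while *Cd79a*, *Hba-a1* and *Ly6g* were not listed. The other tested markers of these lists did not pass. *Itga2b*, listed with *Pf4*, was at 0.09 (limma adjusted p of 0.816). *Col1a2* was at 0.64, and the dendritic cell markers *Zbtb46* and *Ccr7* were at 0.79 and 0.39 (adjusted p of 0.240, 0.064 and 0.131). The part of these marker genes in the results was not tested. In bulk RNA, fewer cells of a type and less RNA per cell cannot be told apart.

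Of the 10 genes, 4 rose in the Cre TEMs (*Trib3*, *Ddit3*, *Atf5* and *Eif2ak4*), 2 fell (*Asns* and *Atf3*), and 4 did not pass the test (*Atf4*, *Chac1*, *Sesn2* and *Ddit4*). The test was limma on log2(normalized count + 1) with Benjamini-Hochberg adjustment over the 13629 genes, and a gene was called at an adjusted p under 0.05. By this rule 41.0% of all genes tested were called, 20.8% higher and 20.3% lower in the Cre TEMs. The 6 called are 60% of the 10 genes, and with so few genes this share is given as a count only. In 7 of the 10 the groups of samples did not overlap, against 36.7% of all genes tested. The median log2 fold change was 0.15 over the 10 genes and -0.0018 over all genes, and the median size of the change regardless of sign was 0.15 and 0.12. The size of the change regardless of sign was above that of 91.8% of all genes tested for *Trib3*, 86.7% for *Ddit3* and 76.8% for *Atf5*. Without floxed replicate 1, 4 of the genes were higher and 3 lower, *Atf4* being the added one, and the log2 fold changes of the 6 called genes were 0.47 for *Trib3*, 0.31 for *Ddit3*, 0.25 for *Atf5*, 0.24 for *Eif2ak4*, -0.18 for *Asns* and -0.15 for *Atf3*.

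**Figure D1:**
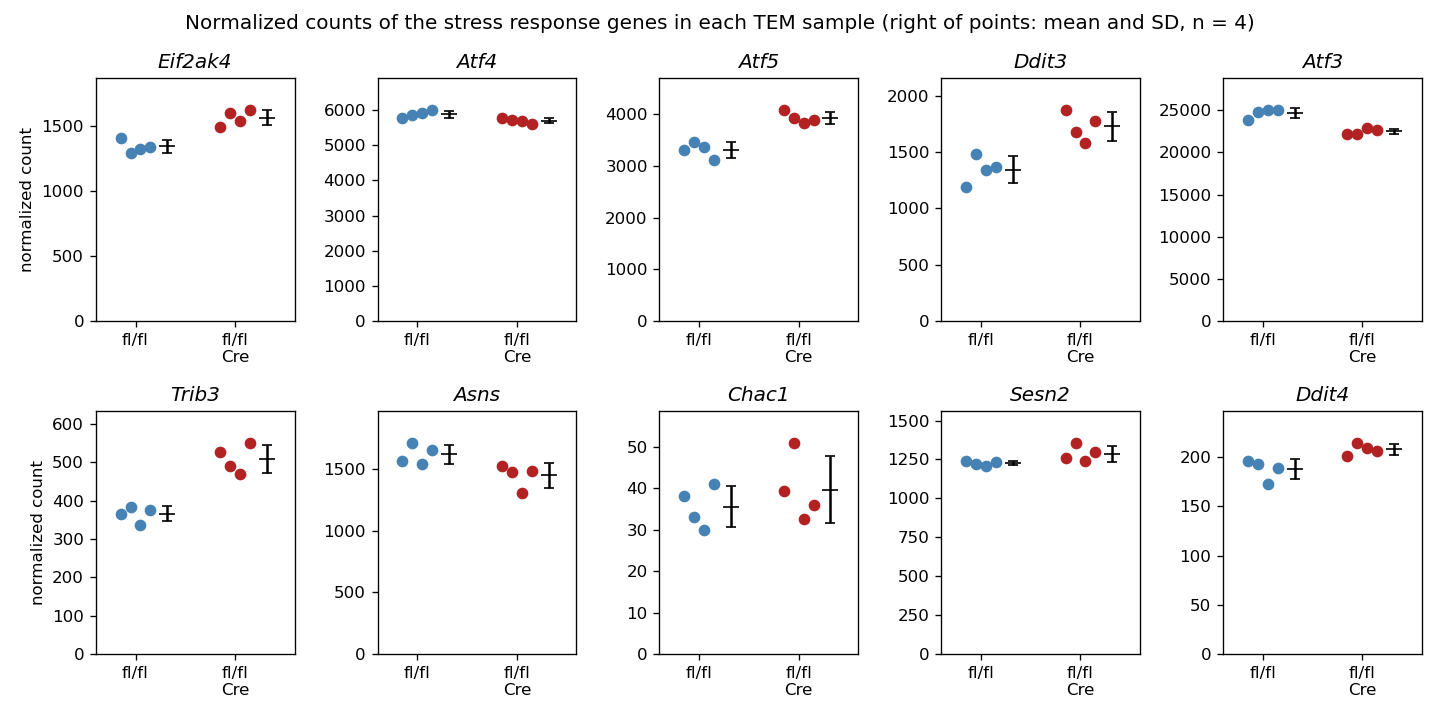
Normalized counts (y axis, from 0) of the 10 genes in the 4 floxed TEM samples (blue, fl/fl) and the 4 Cre TEM samples (red, fl/fl Cre), with replicates 1 to 4 from left to right and the mean and SD to the right of the points. The points of *Trib3*, *Ddit3*, *Atf5* and *Eif2ak4* lie higher in the Cre TEMs without overlap, those of *Asns* and *Atf3* lie lower without overlap, and those of *Atf4*, *Chac1* and *Sesn2* overlap.

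*Eif2ak4* encodes GCN2, the eIF2 kinase that is activated by uncharged tRNA when amino acids are short (ENSMUSG00000005102, chr2:118388618-118475234, plus strand, mm10). Its normalized counts were 1412, 1297, 1326 and 1340 in the floxed TEMs and 1495, 1598, 1542 and 1624 in the Cre TEMs. Every Cre sample was above every floxed sample. The means were 1344 ± 49.0 and 1565 ± 57.7 (SD, n = 4), a log2 fold change of 0.22 with a standard error (SE) of 0.04 and a limma adjusted p of 6.7e-05. GCN1, which couples ribosomes to GCN2, and IMPACT, which inhibits GCN2, belong to the list of regulators described with the other lists.

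*Atf4* mRNA (ENSMUSG00000042406, chr15:80255184-80257541, plus strand) was present at 5759, 5858, 5920 and 5998 normalized counts in the floxed and at 5778, 5720, 5676 and 5612 in the Cre TEMs. The groups met at a single point, where the highest Cre sample lay just above the lowest floxed sample. The means were 5884 ± 101 and 5696 ± 70.2, and the log2 fold change of -0.05 (standard error 0.02) did not pass the test, with a limma adjusted p of 0.121. The 95% interval reached from 0.936-fold to 1.00-fold, so that a fall of a few percent is within it and a rise of any size is nearly outside it. Without floxed replicate 1, the lowest of its group, the log2 fold change was -0.06 with an adjusted p of 0.048, and with quantile normalization it was -0.07 with an adjusted p of 0.022. The protein was not measured by these data.

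*Atf5* encodes a bZIP factor that, like ATF4, is translated more when eIF2 is phosphorylated and that also takes part in the mitochondrial stress response (ENSMUSG00000038539, chr7:44812256-44816658, minus strand). It had 3303, 3474, 3372 and 3111 normalized counts in the floxed TEMs and 4084, 3929, 3825 and 3885 in the Cre TEMs, with a clear gap between the groups. The mean rose from 3315 ± 153 to 3931 ± 111, or 0.25 on the log2 scale (SE 0.03, limma adjusted p = 2.6e-06). On the opposite strand, 82 of its exon bases are shared with *Nup62* and *Il4i1*, whose log2 fold changes were -0.03 and 0.21, and neither passed the test (adjusted p of 0.498 and 0.263).

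*Ddit3* encodes CHOP, the bZIP factor that is induced by ATF4 and linked to cell death after prolonged stress (ENSMUSG00000025408, chr10:127290774-127296288, plus strand). The floxed TEMs had 1190.9, 1477, 1336 and 1364 normalized counts, and the Cre TEMs had 1871, 1672, 1582 and 1777. The lowest Cre sample was above the highest floxed sample, although relative to its mean each group was spread more widely than those of *Atf4* or *Atf5*. The mean rose from 1342 ± 118 to 1725 ± 126, which is 1.29-fold, or 0.36 on the log2 scale (SE 0.05, limma adjusted p = 1.5e-05). *Ddit3* shares 68 exon bases with *Mars* on the opposite strand, and *Mars* fell by 0.10 on the log2 scale. The library kit keeps strand, but the strand setting of the authors' counting is not given in the sources used here, and a separate annotated *Ddit3* entry shares 105 bases on the same strand.

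*Atf3* encodes a bZIP factor that is induced by ATF4 and by Toll-like receptor signals and that restrains inflammatory genes in macrophages (ENSMUSG00000026628, chr1:191170296-191218039, minus strand). It had 23816, 24797, 25010 and 25001 normalized counts in the floxed TEMs and 22226, 22223, 22830 and 22686 in the Cre TEMs. All Cre samples were lower, by a small margin. The mean fell from 24656 ± 569 to 22491 ± 313, a ratio of 0.912 and -0.13 on the log2 scale (SE 0.02, limma adjusted p = 5.4e-05). With quantile normalization the log2 fold change was -0.06 and still passed the test (adjusted p = 0.010).

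*Trib3*, a pseudokinase gene induced by ATF4 and CHOP whose product inhibits ATF4 and AKT, had the largest difference of the 10 (ENSMUSG00000032715, chr2:152337422-152344032, minus strand). Its normalized counts were 365, 384, 338 and 377 in the floxed TEMs and 527, 489, 471 and 550.5 in the Cre TEMs. The highest floxed sample was far below the lowest Cre sample. The mean rose from 366 ± 20.1 to 509 ± 35.9, which is 1.39-fold, or 0.47 on the log2 scale (SE 0.06, limma adjusted p = 3.4e-06). This log2 fold change was above that of 95% of all genes tested.

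*Asns* encodes asparagine synthetase, which makes asparagine from aspartate and glutamine and is a standard reporter of ATF4 activity (ENSMUSG00000029752, chr6:7675169-7693254, minus strand). It went in the other direction from *Trib3*, with 1564, 1708, 1541 and 1651 normalized counts in the floxed TEMs and 1519, 1478, 1300.2 and 1486 in the Cre TEMs. The groups did not overlap, but the highest Cre sample came close to the lowest floxed sample. The mean fell from 1616 ± 77.7 to 1446 ± 98.6, or -0.16 on the log2 scale (SE 0.05, limma adjusted p = 0.0066). Without the mean-variance trend in eBayes the adjusted p was 0.066.

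**Figure D2:**
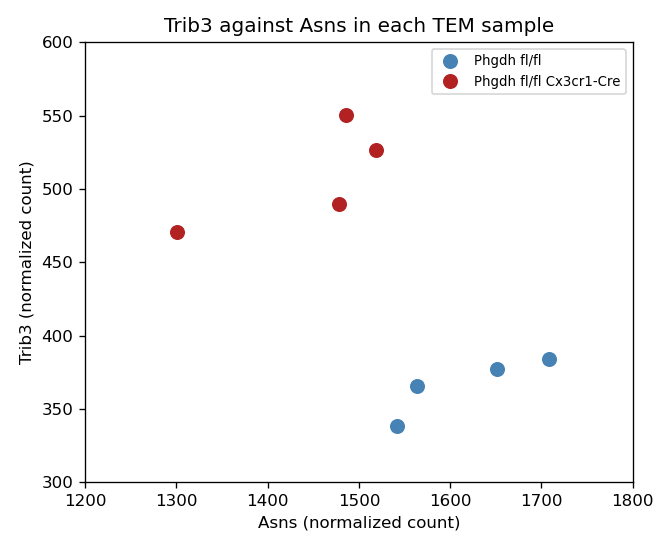
*Trib3* against *Asns*, both in normalized counts, in each sample of the floxed (blue) and Cre (red) TEMs; neither axis starts at 0. The floxed samples lie at the lower right with *Trib3* between 338 and 384, and the Cre samples lie higher and to the left with *Trib3* between 471 and 550.5.

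The ratio of *Trib3* to *Asns* within a sample does not depend on how samples are scaled to each other. It was 0.234, 0.225, 0.219 and 0.228 in the floxed TEMs and 0.347, 0.331, 0.362 and 0.370 in the Cre TEMs (means 0.226 ± 0.00603 and 0.353 ± 0.0173, n = 4). The groups were well apart. The ratio of *Ddit3* to *Atf4* was between 0.207 and 0.252 in the floxed and between 0.279 and 0.324 in the Cre TEMs, and that of *Atf5* to *Atf4* was between 0.519 and 0.593 and between 0.674 and 0.707. The ratio of *Asns* to *Atf4* was between 0.260 and 0.292 in the floxed and between 0.229 and 0.265 in the Cre TEMs, and here the groups overlapped. These ratios were formed after the values of the genes were seen and are given as a description.

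*Chac1* encodes a glutathione-degrading enzyme and is among the most inducible targets of ATF4 and CHOP (ENSMUSG00000027313, chr2:119351229-119354381, plus strand). In these TEMs it had few reads, from 29 to 49 per sample. Its normalized counts were 38.1, 33.1, 29.98 and 41.0 in the floxed and 39.4, 50.9, 32.5 and 36.0 in the Cre TEMs. The groups overlapped throughout. The means were 35.6 ± 4.95 and 39.7 ± 7.98, with a log2 fold change of 0.15, a standard error of 0.19 and a limma adjusted p of 0.580. The 95% interval reached from 0.839-fold to 1.46-fold, which includes the 1.39-fold seen for *Trib3*.

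*Sesn2* encodes a leucine sensor that holds back mTORC1 and is induced by ATF4 and p53 (ENSMUSG00000028893, chr4:132492032-132510501, minus strand). Its normalized counts were 1239, 1222, 1209 and 1231 in the floxed TEMs and 1259, 1355, 1239 and 1297 in the Cre TEMs. Cre replicate 3 equalled the highest floxed sample to the last whole count, and the other Cre samples were above it. The means were 1225 ± 12.7 and 1288 ± 51.0, which differ by 0.07 on the log2 scale (SE 0.04, limma adjusted p = 0.135) and a 95% interval from 0.996-fold to 1.11-fold.

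*Ddit4* encodes REDD1, which restrains mTORC1 through the TSC complex under stress and low oxygen (ENSMUSG00000020108, chr10:59949669-59951834, minus strand). It had 196, 193, 173 and 189 normalized counts in the floxed and 201, 214, 209 and 206 in the Cre TEMs. The groups did not overlap. The exact two-sided permutation test over the 70 labelings of 4 against 4 then gives p = 0.0286 by design, the smallest it can give. This p was not adjusted, and the groups did not overlap in 36.7% of all genes tested. In the fit across all genes the log2 fold change of 0.15 (standard error 0.08) did not pass, with a limma adjusted p of 0.151 and a 95% interval from 0.987-fold to 1.24-fold. Without the mean-variance trend the adjusted p was 0.037. The permutation test gave the same smallest p for each of the 6 called genes, and p = 0.0571, 0.457 and 0.0571 for *Atf4*, *Chac1* and *Sesn2*.

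**Figure D3:**
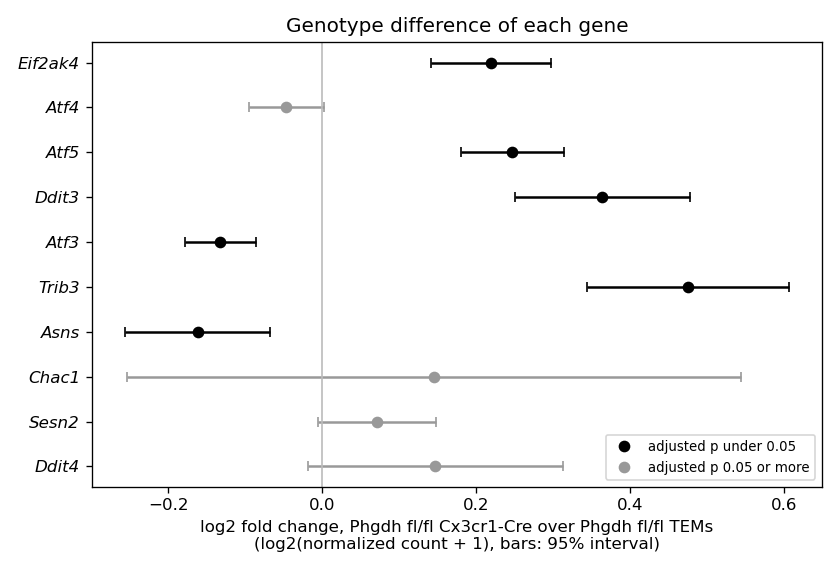
Log2 fold change of each of the 10 genes, Cre over floxed TEMs, on the log2(normalized count + 1) scale, with 95% intervals (n = 4 per genotype) and black points for an adjusted p under 0.05. The 4 genes that rose lie between 0.22 and 0.47, *Atf3* and *Asns* lie at -0.13 and -0.16, and the intervals of the other genes cross 0.

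For levels between genes, FPKM values, which divide the reads by exon length and by the total of counted reads, were computed from the recovered reads and GENCODE exon lengths. *Atf3* was the most abundant of the 10 in the floxed TEMs at 264 ± 5.75 FPKM, followed by *Atf4* at 57.6 ± 0.909, *Atf5* at 38.4 ± 1.79, *Ddit3* at 18.1 ± 1.58 and *Asns* at 13.6 ± 0.663. *Sesn2* was at 8.14 ± 0.0943 FPKM, *Eif2ak4* at 4.16 ± 0.155, *Trib3* at 3.97 ± 0.223, *Ddit4* at 2.47 ± 0.142 and *Chac1* at 0.501 ± 0.0699. *Eif2ak4* and *Trib3* did not differ beyond their spread in this order, and the other neighbours did. In the Cre TEMs *Trib3* stood above *Eif2ak4*, at 5.59 ± 0.384 against 4.89 ± 0.185 FPKM, and the rest of the order was the same.

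By the root mean square difference of log2 values centred on each gene's mean over the 8 samples, the genes most like *Trib3* were *Nat9* (0.0466), *Arl5c* (0.0515) and *Ass1* (0.0522), where the median gene was at 0.277. Their log2 fold changes were 0.44, 0.42 and 0.57. *Ass1* encodes argininosuccinate synthase, which uses citrulline and aspartate. The genes most like *Atf4* were *Derl1* (0.0092), *Rplp0* (0.010) and *Tmem234* (0.011), against a median of 0.104, and their log2 fold changes of -0.05, -0.04 and -0.03 did not pass the test (limma adjusted p of 0.085, 0.117 and 0.330). Since all values share the 8 samples, the likeness is a description.

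Other genes of the pathway and of pathways around it were taken from 8 lists by function. Each list is given by its counts beside the 41.0% of all genes called. The first list held 19 genes for eIF2 kinases, their regulators, and subunits of eIF2 and of its exchange factor eIF2B. Of these, 4 rose, 4 fell and 11 did not pass, or 42.1% called, with a median log2 fold change of -0.01. The 4 that fell were the subunit genes *Eif2s1*, *Eif2s2*, *Eif2b1* and *Eif2b3*, by 0.10, 0.08, 0.17 and 0.19. The other subunit genes of the list did not pass. *Ppp1r15a*, which encodes GADD34, the stress-induced subunit that directs dephosphorylation of eIF2, rose from 1181 ± 39.0 to 1505 ± 33.1 normalized counts (log2 fold change 0.35, limma adjusted p = 1.1e-07). *Impact* rose by 0.19 (adjusted p = 6.8e-06) and *Gcn1* by 0.19 (adjusted p = 0.0023), although in *Gcn1* floxed replicate 1, at 2542, lay within the range of the Cre TEMs and the adjusted p was 0.059 without the mean-variance trend in eBayes. The kinase genes *Eif2ak1*, *Eif2ak2* and *Eif2ak3* were at log2 fold changes of -0.04, -0.06 and 0.08 and did not pass (adjusted p of 0.359, 0.111 and 0.111).

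The 11 tested genes of amino acid and one-carbon synthesis had the lowest median of the 8 lists, at -0.17, with 6 lower, 2 higher and 3 not called. *Psph*, the phosphatase of the last step of serine synthesis, fell from 350.5, 357, 335 and 361 normalized counts in the floxed TEMs to 294, 290.0, 288 and 253 in the Cre TEMs (log2 fold change -0.32, limma adjusted p = 0.00064). *Shmt2*, the mitochondrial enzyme that turns serine into glycine and one-carbon units, fell by 0.25 on the log2 scale (adjusted p = 5.7e-05), from 1112 ± 48.3 to 935 ± 30.9. *Psat1*, *Mthfd2*, *Mthfd1l* and *Aldh18a1* also fell, by 0.20, 0.14, 0.17 and 0.21. The 2 that rose were *Got1*, an aspartate aminotransferase, by 0.11, and *Cth*, the cystathionine gamma-lyase that yields cysteine, by 0.91 (adjusted p = 0.026). *Cth* had few reads and wide spread, with 22.3, 9.20, 17.6 and 22.9 normalized counts against 46.1, 29.1, 17.3 and 49.6. Its adjusted p was 0.107 without floxed replicate 2, 0.101 without Cre replicate 1, and 0.114 without Cre replicate 4, and in each case 1 gene of the list rose instead of 2. *Cbs* was not listed and *Bcat1* was below the level required for testing.

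Of the 8 tested amino acid transporter genes, 3 rose, 2 fell and 3 did not pass, with a median log2 fold change of 0.05. *Slc7a11*, the cystine transporter subunit that ATF4 and NRF2 both induce, rose from 6041, 5621, 5450 and 5235 normalized counts to 8731, 8631, 8884 and 8742. Its log2 fold change was 0.65 with a limma adjusted p of 1.6e-12, and the groups were far apart. *Slc6a9*, a glycine transporter gene, rose from 324 ± 11.3 to 478 ± 33.9 (log2 fold change 0.56, adjusted p = 3.9e-07). *Slc7a5*, the large neutral amino acid transporter that exchanges glutamine for leucine, fell from 175 ± 28.8 to 124 ± 3.75 (log2 fold change -0.48, adjusted p = 0.0014). *Slc43a1* was not listed and *Slc7a3* was below the level required for testing.

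Of 13 genes for cytosolic tRNA synthetases and the tRNA exporter *Xpot*, 8 fell, 1 rose and 4 did not pass, with a median log2 fold change of -0.09. The changes were small. *Tars* fell from 2307 ± 63.7 to 2012 ± 70.1 normalized counts (log2 fold change -0.20, limma adjusted p = 4.7e-05), *Yars* fell by 0.19 (adjusted p = 0.00020) and *Xpot* by 0.12 (adjusted p = 0.0011). The gene that rose was *Eprs*, at 0.09 (adjusted p = 0.0036). Without Cre replicate 3, 5 genes fell and 2 rose.

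The list of other stress targets leaned the other way, with 9 of 18 tested genes higher, 2 lower, 7 not called and a median of 0.14. *Gdf15*, which encodes a secreted stress cytokine, rose from 957, 1032, 951 and 939 normalized counts in the floxed TEMs to 1548, 1571, 1431 and 1554 in the Cre TEMs (log2 fold change 0.65, limma adjusted p = 6.5e-11). *Gadd45a*, a growth arrest gene that p53 also induces, rose by 0.48 (adjusted p = 2.8e-09), and *Klhl24*, which encodes a ubiquitin ligase adaptor, rose by 0.39 (adjusted p = 4.9e-10). *Vldlr*, *Bbc3*, *Pmaip1*, *Gadd45b*, *Ero1a* and *Sqstm1* rose by 0.32, 0.29, 0.25, 0.23, 0.14 and 0.12. The 2 that fell were *Hmox1*, the heme oxygenase gene, by 0.23 and *Jdp2*, a bZIP repressor gene, by 0.23. *Fgf21* was not listed and *Stc2* was below the level required for testing.

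Endoplasmic reticulum stress also works through ATF6 and IRE1, which act on chaperone genes beside the eIF2 branch. Among 21 genes of these branches 7 rose, 5 fell and 9 did not pass, with a median of 0.0063. *Ern1*, which encodes IRE1, rose by 0.21 and *Atf6* by 0.15, while *Manf*, a secreted folding factor gene, fell by 0.18 (limma adjusted p of 2.8e-05, 7.2e-05 and 0.00094). *Hspa5*, the chaperone gene that is the usual reading of this stress, rose by 0.13 (adjusted p = 6.0e-05), from 23130.0 ± 436 to 25237 ± 292 normalized counts. The others that rose were *Edem1*, *Herpud1*, *Xbp1* and *Sel1l*, by 0.13, 0.11, 0.10 and 0.09. The others that fell were *Dnajb11*, *Creld2*, *Calr* and *Pdia6*, by 0.15, 0.14, 0.10 and 0.08. Without floxed replicate 1, 8 genes of the list fell instead of 5.

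Of 13 genes for sestrins and mTORC1 sensing, 5 rose, 2 fell and 6 did not pass, with a median of 0.05. *Sesn3*, a paralog of *Sesn2*, rose from 578 ± 20.04 to 762 ± 33.2 normalized counts (log2 fold change 0.40, limma adjusted p = 1.1e-06), and *Sesn1*, the third paralog, fell by 0.14. *Ddit4l*, the paralog of *Ddit4*, rose from 33.5, 16.6, 16.5 and 30.5 to 56.3, 52.0, 48.8 and 41.8 (log2 fold change 1.07, adjusted p = 0.00082), on few reads. *Castor1*, which encodes an arginine sensor, rose by 0.30 (adjusted p = 0.0035). Among 24 bZIP factor genes, some of whose products can pair with ATF4, ATF3 or CHOP, 5 rose, 6 fell and 13 did not pass. Their median was 0.03. *Fos* fell from 5358 ± 127 to 4134 ± 249 (log2 fold change -0.38, adjusted p = 1.7e-08), *Jdp2* fell as given, and *Nfe2l2*, which encodes NRF2, rose by 0.22 (adjusted p = 1.7e-07). The bZIP list shares 4 genes with the other lists.

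**Figure D4:**
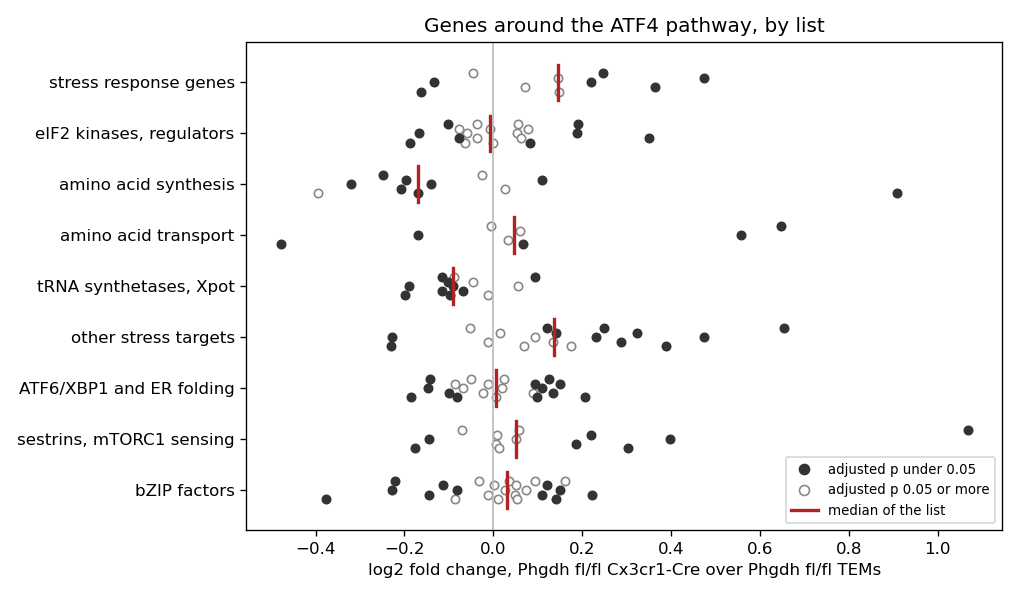
Log2 fold change, Cre over floxed TEMs, of the tested genes in each list (filled points for an adjusted p under 0.05, open points otherwise, red bar for the median of the list; points are spread vertically for legibility). The amino acid synthesis genes have their median at -0.17 and the tRNA synthetase genes at -0.09, and the other stress targets have theirs at 0.14, close to the 10 stress response genes at 0.15.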

How the data were processed

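RNA-seq had been done on 8 TEM samples, 4 per genotype, grouped by the genotype in the labels. Per the methods and labels, the authors mapped single-end reads to mm10 with TopHat2, counted them per gene with HTSeq 0.6 and compared genotypes with DESeq2. The deposited sample values are a signal per gene that equals the counted reads over a scaling factor of the sample, while the methods speak of FPKM. All 144353 values above 0 came out as whole reads within 0.01, so depth is known. The scaling factors lay between 0.889 and 1.09. The authors' own mean, log2 fold change, standard error, test score and p-value columns were not used.

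Tests covered genes whose normalized counts averaged 10 or more, using limma 3.58.1 (R 4.3.3; eBayes allowing a mean-variance trend, with two-sided p-values adjusted by Benjamini-Hochberg) on log2(normalized count + 1), which understates changes of low genes. Exact permutation tests used Python 3.11.15 and scipy 1.17.1. Gene positions and exon lengths came from GENCODE M21, whose build is that of mm10. From each list the 3 called genes with the largest absolute log2 fold change were named, with others chosen after their values were seen. The members, lists and tests were chosen with earlier results of these data known. Alternatives were a pseudocount of 0.1 or 5, no filter or a mean of at least 50, quantile normalization, scaling to total reads, eBayes without trend, a replicate block, edgeR 4.0.16, DESeq2 1.42.0 and leaving out each sample. The fits were run on simulated counts with a constant spread, in which few genes changed, by 0.5 or 1 on the log2 scale. The simulation does not cover the smaller changes or the uneven replicates of these data. P-values measure the spread between these samples only.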

Additional observations from a re-analysis of the deposited data

Results flagged for a closer look

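The check covered the members, *Phgdh*, the 3 largest called changes of each list and the genes most like *Trib3* and *Atf4*. In 82 groups of 4 samples, 5 had a highest or lowest sample far from the other 3, and chance gives about 1 such group in 20. None was a group of the 10 stress response genes. In the floxed TEMs, *Gcn1* was at 2542 normalized counts in replicate 1 against 2136 to 2160 in the others, and *Xpot* was at 5450 in replicate 1 against 5183 to 5224. In the Cre TEMs, *Gdf15* was at 1431 in replicate 3 against 1548 to 1571, *Impact* was at 3788 in replicate 3 against 3670.2 to 3675, and *Psph* was at 253 in replicate 4 against 288 to 294.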

How the results depend on the processing

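Over 18 alternatives no member changed sign, and 5 of the 6 called members (*Ddit3*, *Atf3*, *Atf5*, *Trib3* and *Eif2ak4*) passed the test in all of them. *Asns* missed it once, without the mean-variance trend in eBayes (log2 fold change -0.16, adjusted p = 0.066). Among the members not called, *Atf4* passed with quantile normalization (-0.072, adjusted p = 0.022), and when each sample was left out in turn its log2 fold change lay between -0.057 and -0.037. *Ddit4* passed without the trend (0.15, adjusted p = 0.037), and *Chac1* had no value with a filter at a mean of 50. Without the trend, 1 member was lower, 2 eIF2 regulators were higher, 1 amino acid synthesis gene was higher, and 1 gene of the ATF6 and XBP1 list was lower. With the filter at 50, 1 amino acid synthesis gene was higher, and with scaling to total reads 2 tRNA synthetase genes were higher. When samples were left out, between 1 and 2 amino acid synthesis genes were higher, between 1 and 2 tRNA synthetase genes higher and between 5 and 8 lower, and between 4 and 8 genes of the ATF6 and XBP1 list lower. *Rplp0*, named for its likeness to *Atf4*, changed sign with quantile normalization (0.017). The cause of these shifts was not tested. Of 179 member values under the alternatives, 175 kept their direction and side of the threshold, and of 360 counts 348 stayed within 1.5 times the reported count, although single genes crossed the threshold within these. *Gcn1* and *Cth* lost their calls without the trend (adjusted p of 0.059 and 0.118). With the replicate number as a block, *Trib3* was at a log2 fold change of 0.47 (adjusted p = 2.9e-06) and no member gained or lost its call. Same-numbered samples had correlations of their deviations between 0.0628 and 0.126, 1 of 4 above 0.1. Samples with different numbers had correlations between -0.1237 and 0.1345. Of 8 samples, 5 correlated best with their own number. The labels do not name pairs, and the numbers were not taken as pairs in the main test. Depth limits the genes with few reads, among them *Chac1*, *Cth* and *Ddit4l*.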
